A study of Mus musculus with 54 samples.

Results

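Heat shock proteins are molecular chaperones, proteins that bind unfolded or partly folded polypeptides and help them fold, assemble or be degraded. The 10 chaperone genes described here are Hspa1a, Hspa1b, Hspa5, Hspa8, Hsp90aa1, Hsp90ab1, Hspd1, Hspe1, Dnajb1 and Hsph1, of 55385 genes listed in each of 2 RNA-seq count tables from mouse naive CD4+ T cells. All 10 were found in both tables and all had reads. They were chosen by name as a family, from a list drawn up because Hspa1a was already known to be high in stimulated Lat-/- cells. Every contrast that involves Lat-/- libraries is therefore given for these genes as description only. That means values, and counts of genes past set thresholds, with no p-value. Contrasts among the other libraries, which did not enter that choice, are tested.

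The cells were naive CD4+ T cells from pooled lymph nodes and spleens of 8 to 10 wk old C57BL/6 mice, left unstimulated (given here as 0 h) or stimulated for 4 and 20 h with plate-bound anti-CD3 plus soluble anti-CD28, antibodies that engage the T cell antigen receptor (TCR) and the costimulatory receptor CD28. The LAT experiment compared WT (hDTR+) cells with Lat-/- (hDTR-) cells, which lack the adaptor LAT that couples the TCR to its downstream pathways. Both populations were sorted by flow cytometry from Latfl-dtr maT-Cre mice, in which a Cre expressed in maturing T cells deletes Lat in a fraction of the cells and the human diphtheria toxin receptor reports the cells that kept it. The WT cells of that experiment thus carried the same floxed allele and the same Cre. The CD5/CD6 experiment compared WT cells with Cd5-/-, Cd6-/- and Cd5-/-Cd6-/- cells, which lack 1 or both of the scavenger receptor family proteins CD5 and CD6. Those cells were isolated with a magnetic kit from WT mice and from mice with germline deletions, of which the Cd5 deletion had been backcrossed to C57BL/6 and the Cd6 and double deletions were made with Cas9 in embryos. Each genotype and time had 3 libraries, which made 18 libraries in the LAT experiment and 36 in the CD5/CD6 experiment. The study describes the samples of a condition as independent, and whether they came from separate mice is not given in the sources used here, so p-values measure the spread between these libraries.

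In the cytosol, the HSP70 proteins bind short hydrophobic stretches of client proteins and release them in a cycle driven by ATP. J-domain proteins such as the product of Dnajb1 deliver clients to HSP70, the HSP110 protein made from Hsph1 exchanges its nucleotide, and the HSP90 proteins take over many signaling clients, among them the T cell kinase LCK. Hspa5 encodes the HSP70 of the endoplasmic reticulum (ER), also called BiP, which is induced when unfolded proteins accumulate there. Hspd1 and Hspe1 encode the chaperonin and co-chaperonin of the mitochondrial matrix. Hspa8, Hsp90ab1 and Hspa5 are made in most cells all the time, whereas Hspa1a and Hspa1b are the classical inducible HSP70 genes, switched on by heat shock factor 1 (HSF1). HSF1 binds repeats of the unit GAA, set in turn on opposite strands. T cells that leave quiescence grow and make large amounts of protein.

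Hspa1a and Hspa1b lie side by side on mouse chromosome 17 (build GRCm38). Hspa1a (ENSMUSG00000091971.3) spans chr17:34969190-34972156 and Hspa1b (ENSMUSG00000090877.3) spans chr17:34956436-34959238, both on the minus strand, and their annotated starts are 12918 bases apart. The 250 bases before each start are shown to let the pair be compared, and no value here tests what they do. They come from RefSeq (GRCm38.p6), chr17:34972157-34972406 for Hspa1a and chr17:34959239-34959488 for Hspa1b, written 5′ to 3′ on the minus strand. Capitals mark a pair of heat shock units, GAA and TTC set 2 bases apart.
Hspa1a: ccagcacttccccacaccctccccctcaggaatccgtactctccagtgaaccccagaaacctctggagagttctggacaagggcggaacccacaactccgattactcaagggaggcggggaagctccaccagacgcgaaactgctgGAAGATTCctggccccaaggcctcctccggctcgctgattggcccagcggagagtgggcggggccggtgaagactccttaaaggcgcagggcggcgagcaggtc
Hspa1b: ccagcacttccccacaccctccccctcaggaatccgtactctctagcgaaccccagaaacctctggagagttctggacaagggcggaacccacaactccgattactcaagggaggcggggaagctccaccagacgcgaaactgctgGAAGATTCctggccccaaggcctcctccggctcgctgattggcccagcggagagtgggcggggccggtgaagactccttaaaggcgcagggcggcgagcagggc
Of the 250 bases, 247 (98.8%) were the same in both windows. The capitals fall 104 to 97 bases before the start in each. The transcripts are alike too. Of all 50-base pieces of the annotated Hspa1a transcripts, 66.3% also occurred in another gene, and the share for Hspa1b was 62.3%. How such reads were counted is not given in the sources used here, so the split of counts between the 2 genes is uncertain and they are best read as a pair. Hspa1a also overlaps Gm20481 on the opposite strand over 2225 bases.

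The other members lie apart from these and from each other, except for one pair. Hspd1 (ENSMUSG00000025980.14, chr1:55077835-55088243, minus strand) and Hspe1 (ENSMUSG00000073676.4, chr1:55088132-55091307, plus strand) are divergent neighbors whose annotated ends overlap by 112 bases. Hsph1 (ENSMUSG00000029657.15) is at chr5:149614287-149636376 on the minus strand, Dnajb1 (ENSMUSG00000005483.10) at chr8:83608193-83612653 on the plus strand and Hspa5 (ENSMUSG00000026864.13) at chr2:34771970-34777547 on the plus strand. Hspa8 (ENSMUSG00000015656.17) is at chr9:40800984-40810087 on the plus strand and contains 3 small nucleolar RNA genes. Hsp90aa1 (ENSMUSG00000021270.13) is at chr12:110690605-110702728 and Hsp90ab1 (ENSMUSG00000023944.14) at chr17:45567775-45573271, both on the minus strand. Of all 50-base pieces, 47.5% of Hsp90aa1, 42.1% of Hspd1, 39.4% of Hspa8 and 22.8% of Hspe1 occurred in another gene. For Hsp90aa1 these genes were pseudogenes, for Hspd1 mainly so and for Hspa8 pseudogenes beside a long noncoding RNA gene, whereas most shared pieces of Hspe1 occurred in a protein-coding gene model with no given name (17.9% of its pieces). For Hsp90ab1 the share was 3.44%, for Dnajb1 0.412%, and for Hspa5 and Hsph1 it was 0.

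Promoters of 7 of the 10 members (10 promoters) were in the RefSeq table, and 250 bases before each start were searched on both strands for exact letters. Motifs searched were 2 heat shock units (GAA and TTC, in either order, 2 bases apart), 3 such units in turn with the same spacing, the CCAAT box alone, an ER stress element (a CCAAT box followed, after 9 bases of any kind, by the letters CCACG), and, as a form of the TATA box, the letters TATAAA. The shorter motifs lie within the longer ones. Among 32851 mouse promoters of the same length, 12.8% held 2 heat shock units, 0.466% held 3 units, 0.113% held the ER stress element, 33.8% held a CCAAT box and 12.4% held the TATA box letters. Stretches of 30 bases show which member carries which motif, each 5′ to 3′ on the strand of its gene, with the motif in capitals.
Hspd1, chr1:55088053-55088082, minus strand: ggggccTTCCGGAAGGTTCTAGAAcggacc
Hspe1, the same bases on the plus strand: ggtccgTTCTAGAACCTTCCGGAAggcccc
Hsph1, chr5:149636351-149636380, minus strand: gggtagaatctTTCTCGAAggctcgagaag
Hspa5, chr2:34772020-34772049, plus strand: cttcaCCAATCGGAGGCCTCCACGacgggg
Heat shock units stood in an unbroken run in the window before the Hspe1 start (chr1:55087898-55088147) and in 1 of the 2 Hspd1 windows (chr1:55087933-55088182), so that both held the motif of 3 units. The other Hspd1 window, before the start of the annotated gene (chr1:55088244-55088493), held neither heat shock motif. A single pair of units stood before Hsph1, as in Hspa1a and Hspa1b. In the Hspa5 window the ER stress element lay 65 to 47 bases before the start, beside 4 CCAAT motifs in all, and no heat shock units were found. Neither heat shock motif was found in the Dnajb1 windows. The TATA box letters were in none of these windows. Such matches are letters in a window and say nothing of what binds there.

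Library totals were 17784644 to 28501095 counts in the LAT experiment and 20554354 to 45222554 in the CD5/CD6 experiment. Lat was at 5.69 to 19.1 CPM (counts scaled to a common library total with TMM factors) in Lat-/- libraries and at 92.2 to 351 CPM in WT libraries of the LAT experiment. Transcripts of Cd5 and Cd6 were at most 0.663 CPM in Cd5-/-Cd6-/- libraries. In the CD5/CD6 experiment the 0 h libraries 2 labelled Cd5-/- and Cd6-/- went against their labels, with Cd5 and Cd6 levels of the other knockout, so the calls that rest on them were repeated without both. T cell markers were high in all libraries, at a summed 3341 to 9269 CPM. In the sorted LAT cells the summed myeloid list stayed at or below 3.10 CPM and the red cell list at or below 3.33 CPM, whereas in the kit-isolated cells at 0 h they reached 425 and 4857 CPM. At 4 h in the LAT experiment the defining B cell gene Ms4a1 had 0 counts in all 6 libraries. The summed B cell list, nearly all Ighm, was at 81.5 to 189 CPM in WT and 308 to 460.4 CPM in Lat-/- libraries at 4 h, and its part in the chaperone values was not tested. In bulk RNA, fewer cells of a type and less RNA per cell cannot be told apart.

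Hspa1a, an inducible HSP70, was nearly silent without stimulation, high at 4 h and nearly silent again at 20 h in the LAT experiment. At 0 h the 3 WT libraries had 0.471, 0.372 and 0.105 CPM and the 3 Lat-/- libraries had 0.247, 0.606 and 1.38 CPM, always in the order of libraries 1, 2 and 3. At 4 h WT libraries had 117, 77.6 and 2.87 CPM (2497, 1694 and 76 counts). Lat-/- libraries had 471, 212 and 3.95 CPM at 4 h (11390, 3614 and 76 counts). In both genotypes libraries 1 and 2 were far above library 3, and the ranges of WT and Lat-/- overlapped. By 20 h WT libraries were at 0.300, 0.0369 and 0 CPM and Lat-/- libraries at 0.0506, 0.148 and 0 CPM, at most a few counts each.

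In WT cells the Hspa1a log2 fold change at 4 h against 0 h was 7.73 (adjusted p = 0.00021, SE 1.50), by edgeR's quasi-likelihood test over the 13928 expressed genes of that table with Benjamini-Hochberg adjustment, which is the source of every SE, interval and adjusted p given for single genes of the LAT experiment. Hspa1a then fell from 4 to 20 h, with a log2 fold change of -9.18 (adjusted p = 0.00017, SE 1.72). Its difference between 20 h and 0 h did not pass the test, at -1.45 (adjusted p = 0.68, SE 3.04). In Lat-/- cells, given as description, the log2 fold change at 4 h was 8.23 (SE 1.41), and the log2 difference of Lat-/- from WT at 4 h was 1.80 (SE 0.97). The higher mean of Lat-/- cells came from libraries 1 and 2. With library 3 alone at 4 h, so that its spread is assumed to be that of the other groups, the log2 difference of Lat-/- from WT was 0.50 and the log2 fold changes at 4 h were 3.10 in WT and 2.38 in Lat-/- cells.

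Hspa1b, which encodes nearly the same HSP70 protein, followed the same course. At 0 h WT libraries had 2.90, 3.22 and 0.280 CPM and Lat-/- libraries 1.97, 4.43 and 3.78 CPM. At 4 h these values were 187, 114 and 5.36 CPM in WT and 794, 338 and 7.60 CPM in Lat-/- libraries. At 20 h all 6 libraries lay between 0.253 and 0.442 CPM. The 4 h ranges overlapped again through the low library 3, and libraries 1 and 2 of Lat-/- cells were each above all WT libraries. Hspa1b rose at 4 h in WT cells, with a log2 fold change of 5.62 (adjusted p = 0.00068, SE 1.23), and fell from 4 to 20 h, with -8.06 (adjusted p = 0.00016, SE 1.50). The log2 fold change of Lat-/- cells at 4 h was 6.82 (SE 1.27) and their log2 difference from WT was 1.90 (SE 0.98). Without the 4 h libraries 1 and 2 the WT value dropped to 1.25, the Lat-/- value to 1.16 and the difference to 0.54.

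**Figure D1:**
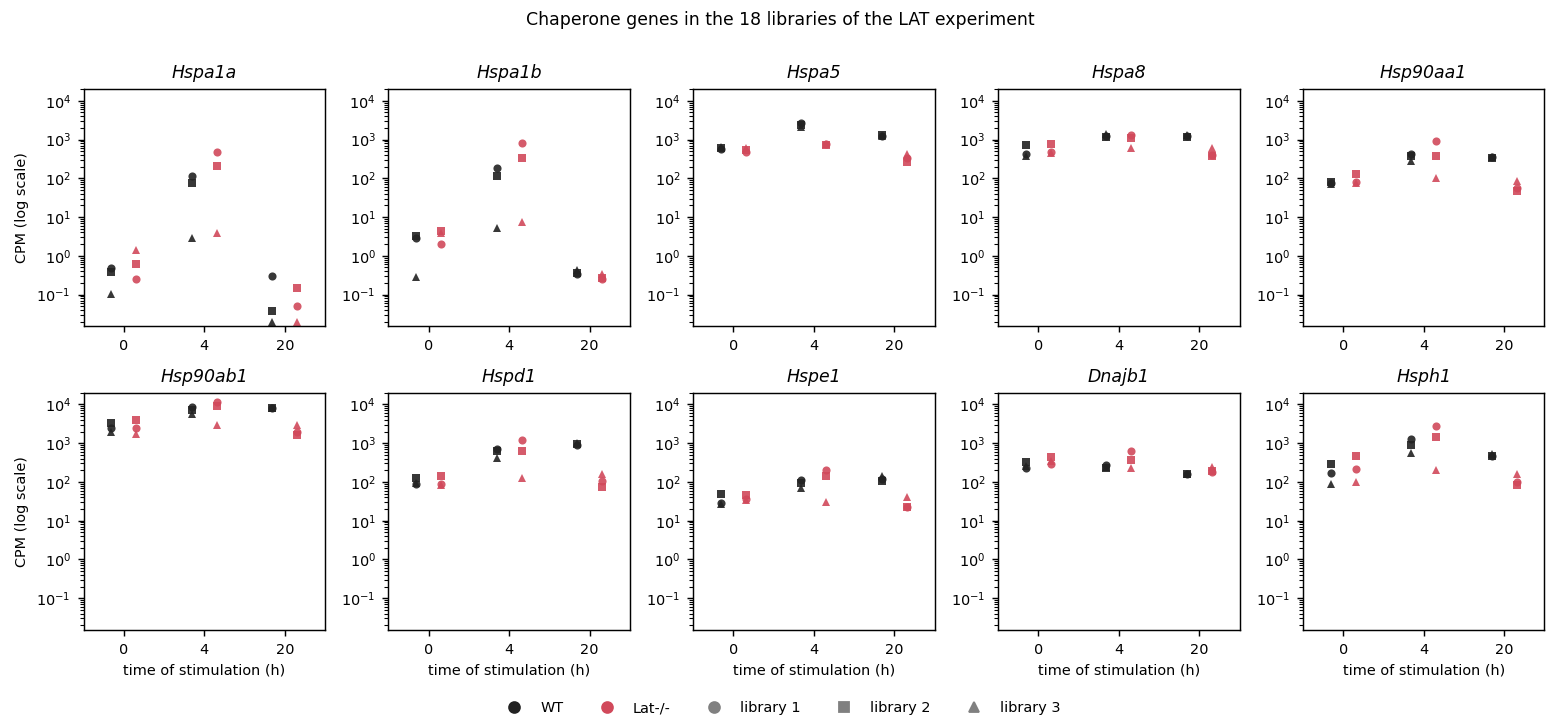
CPM of the 10 chaperone genes in each of the 18 libraries of the LAT experiment, on a log axis, by genotype and hours of stimulation, with a marker shape for library 1, 2 or 3 and values of 0 drawn at 0.02 CPM. Hspa1a and Hspa1b peaked at 4 h in libraries 1 and 2 of both genotypes, and at 20 h every WT library lay above every Lat-/- library for Hspa5, Hspa8, both Hsp90 genes, Hspd1, Hspe1 and Hsph1.

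Library 3 stood apart at 4 h for most members, and more so in Lat-/- cells. For Hspa1a, library 1 was 40.7-fold and library 2 27.1-fold above library 3 in WT cells, against 119-fold and 53.7-fold in Lat-/- cells. For Hsph1 the WT ratios were 2.30 and 1.59, and the Lat-/- ratios 13.7 and 6.97. For Hspd1 they were 1.77 and 1.51 in WT and 9.77 and 4.93 in Lat-/- cells, and for Hsp90aa1 1.53 and 1.36 in WT and 8.91 and 3.78 in Lat-/- cells. The Lat-/- ratios were smaller for Hspe1 (6.40 and 4.42), Hsp90ab1 (3.86 and 3.00), Dnajb1 (2.72 and 1.65) and Hspa8 (2.19 and 1.74). Hspa5 did not share in it, with Lat-/- ratios of 1.01 and 0.918.

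Library 3 was the lowest of the 3 for 9 of 10 members in Lat-/- cells at 4 h and for 8 of 10 in WT cells at 4 h, where it was the lowest for 34.3% and 37.1% of the 10151 genes that averaged 50 counts or more. At 0 h it was lowest for 7 members in WT and 6 in Lat-/- cells (22.9% and 28.8% of genes), and at 20 h for 1 member in each (46.3% and 37.8% of genes). Mitochondrially encoded transcripts took 1.94, 2.45 and 0.983% of counts in WT libraries 1, 2 and 3 at 4 h, and 2.62, 3.05 and 2.05% in Lat-/- libraries, so library 3 was lowest there too. The summed immediate-early genes, which respond within minutes to stimulation or handling, were at 3559, 3524 and 3255 CPM in WT and at 1508, 1109 and 1237 CPM in Lat-/- libraries at 4 h. The part of these in the chaperone values was not tested.

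**Figure D2:**
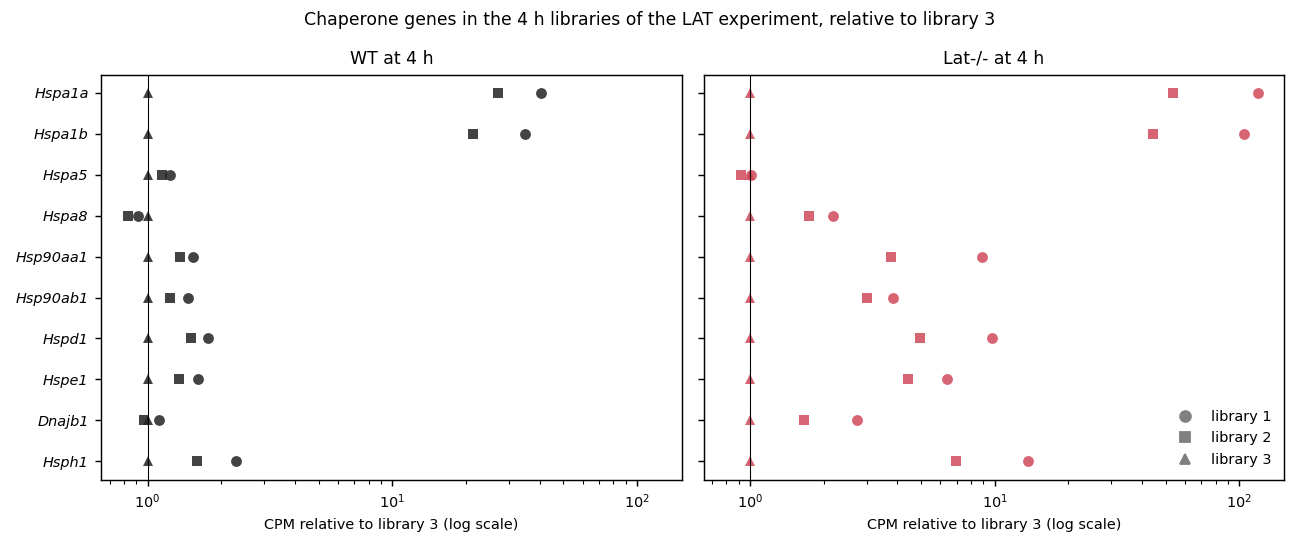
Ratio of the CPM of libraries 1 and 2 to that of library 3 at 4 h in the LAT experiment, for each chaperone gene in WT and Lat-/- cells, on a log axis. Hspa1a and Hspa1b had ratios from 21.3 to 119, whereas the Hspa5 ratios lay between 0.918 and 1.23.

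Hsph1, the HSP110 partner of HSP70, had the next largest spread. At 0 h WT libraries had 173, 284 and 89.1 CPM and Lat-/- libraries 221, 456 and 98.3 CPM, with library 3 lowest in both. At 4 h values were 1310.3, 903 and 569 CPM in WT and 2807, 1429 and 205 CPM in Lat-/- libraries. At 20 h they were 466, 467 and 536 CPM in WT and 101, 82.9 and 161 CPM in Lat-/- libraries, with no overlap. Hsph1 rose in WT cells at 4 h, with a log2 fold change of 2.37 (adjusted p = 0.0048, SE 0.66), and did not pass at 20 h, at 1.42 (adjusted p = 0.057, SE 0.64). Lat-/- cells had log2 fold changes of 2.54 (SE 0.66) at 4 h and -1.17 (SE 0.64) at 20 h. With library 3 alone at 4 h, set against all 3 libraries at 0 h, the Lat-/- value turned to -0.34. WT cells kept a value of 1.56. Library 3 was low at 0 h too. Within it Hsph1 went from 98.3 to 205 CPM in Lat-/- cells and from 89.1 to 569 CPM in WT cells.

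Dnajb1, the J-domain protein that serves the inducible HSP70, was the member that did not follow the others. At 0 h WT libraries had 225, 336 and 266 CPM and Lat-/- libraries 287, 429.6 and 352 CPM. At 4 h these were 268, 232 and 239.9 CPM and 615, 373 and 226 CPM. At 20 h they were 156, 159.9 and 162 CPM and 181, 187 and 244 CPM. In WT cells the log2 fold change was -0.14 (adjusted p = 0.65, SE 0.25) at 4 h and -0.79 (adjusted p = 0.0095, SE 0.25) at 20 h, past the p threshold at 20 h but under the 2-fold threshold used for calls. At 20 h all 3 Lat-/- libraries were above all WT libraries, the only member in that direction, with a log2 difference of 0.36 (SE 0.25).

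Hsp90ab1, the constitutive HSP90, was the most abundant member per length in every group of the LAT experiment. WT libraries had 2403, 3405 and 1940.4 CPM at 0 h, 8554, 7215 and 5826 CPM at 4 h and 7993, 8203 and 8169 CPM at 20 h. Lat-/- libraries had 2437, 3979.6 and 1737 CPM at 0 h, 11378, 8864 and 2951 CPM at 4 h and 1961, 1611 and 2872 CPM at 20 h. WT cells kept the higher level from 4 to 20 h, whereas the Lat-/- libraries at 20 h overlapped with those at 0 h. The WT log2 fold change was 1.50 (adjusted p = 0.0021, SE 0.38) at 4 h and 1.65 (adjusted p = 0.0008, SE 0.38) at 20 h, and the log2 difference of Lat-/- from WT at 20 h was -1.92 (SE 0.38).

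Hsp90aa1, the inducible HSP90, was at 73.9, 80.8 and 69.1 CPM in WT and 81.9, 126 and 73.3 CPM in Lat-/- libraries at 0 h. At 4 h it was at 415, 368 and 271 CPM in WT and 894, 379.6 and 100.4 CPM in Lat-/- libraries, with the highest and the lowest value both in Lat-/- cells. At 20 h it was at 348, 333 and 362 CPM in WT and 57.2, 46.8 and 82.8 CPM in Lat-/- libraries. It rose in WT cells, with a log2 fold change of 2.26 (adjusted p = 0.0004, SE 0.47) at 4 h and 2.22 (adjusted p = 0.00037, SE 0.47) at 20 h. The log2 difference of Lat-/- from WT was 0.38 (SE 0.45) at 4 h, or -1.39 with library 3 alone, and -2.48 (SE 0.47) at 20 h.

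Hspa8, the constitutive HSP70 also known as HSC70, had 423, 717 and 387 CPM in WT and 473, 786 and 439 CPM in Lat-/- libraries at 0 h, with library 2 highest in both. At 4 h it had 1246, 1131 and 1363 CPM in WT and 1336, 1064 and 610.2 CPM in Lat-/- libraries. At 20 h it had 1214, 1187 and 1293 CPM in WT and 409, 382 and 612 CPM in Lat-/- libraries, where the groups no longer overlapped. Its WT log2 fold changes were 1.31 (adjusted p = 0.0006, SE 0.28) at 4 h and 1.27 (adjusted p = 0.00062, SE 0.28) at 20 h.

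The mitochondrial pair rose at 4 h in WT cells and stayed high at 20 h. Hspd1, the HSP60 chaperonin, had 89.4, 124 and 92.4 CPM at 0 h, 721, 614 and 407 CPM at 4 h and 922, 961 and 993 CPM at 20 h in WT libraries. In Lat-/- libraries it had 89.2, 145 and 81.1, then 1219.7, 615 and 125, then 105, 74.0 and 157 CPM. Lat-/- libraries thus spanned a wide range at 4 h and were back near the 0 h level at 20 h. The WT log2 fold change was 2.53 (adjusted p = 0.00028, SE 0.51) at 4 h and 3.23 (adjusted p = 2.3e-05, SE 0.52) at 20 h, the largest rise of the 10 genes at 20 h. The log2 difference of Lat-/- from WT at 20 h was -3.09 (SE 0.52), also the largest of the 8 members other than Hspa1a and Hspa1b.

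Hspe1, the HSP10 co-chaperonin that caps HSP60, moved with Hspd1 at lower counts. WT libraries had 28.2, 50.1 and 27.8 CPM at 0 h, 109.6, 91.6 and 68.4 CPM at 4 h and 117, 107 and 142 CPM at 20 h. Lat-/- libraries had 35.8, 46.3 and 34.4 CPM at 0 h, 200.5, 139 and 31.3 CPM at 4 h and 22.5, 23.2 and 41.8 CPM at 20 h. Hspe1 rose in WT cells, by a log2 fold change of 1.36 (adjusted p = 0.011, SE 0.43) at 4 h and 1.79 (adjusted p = 0.0013, SE 0.43) at 20 h. With library 3 alone at 4 h the log2 fold change was 0.87 in WT cells, under the 2-fold threshold, and -0.31 in Lat-/- cells.

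Hspa5, the HSP70 of the ER, had libraries close to each other and separated the genotypes already at 4 h. WT libraries were at 576, 591 and 629 CPM at 0 h, at 2613, 2437 and 2119.8 CPM at 4 h and at 1203, 1288 and 1262 CPM at 20 h. Lat-/- libraries were at 469, 527 and 595 CPM at 0 h, at 785, 714 and 778 CPM at 4 h and at 331, 264 and 435 CPM at 20 h. At 20 h every WT library was above, and every Lat-/- library below, its own genotype's 0 h libraries. In WT cells Hspa5 rose, with a log2 fold change of 2.02 (adjusted p = 3.1e-09, SE 0.15) at 4 h and 1.06 (adjusted p = 4.6e-06, SE 0.15) at 20 h. Lat-/- cells had 0.54 (SE 0.15) at 4 h and -0.62 (SE 0.15) at 20 h. The log2 difference of Lat-/- from WT was -1.66 (SE 0.15) at 4 h, or -1.41 with library 3 alone, and -1.86 (SE 0.15) at 20 h.

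Counts of members past the threshold (a change over 2-fold with an adjusted p under 0.05) were taken from the edgeR fit of all 27780 genes with a read, beside the share of all genes called in the same direction. In WT cells of the LAT experiment 9 of 10 members rose at 4 h and none fell, where 8.05% of genes rose and 9.29% fell. At 20 h 7 rose and 2 fell (10.8% and 12.7% of genes). The fit of expressed genes gave 6 and 0, as Hsph1, Hspa1a and Hspa1b did not pass there. From 4 to 20 h 2 members fell and none rose (9.32% and 7.9% of genes). The median log2 fold change of the members was 2.12 at 4 h and 1.35 at 20 h, where the median of all genes tested was 0. In the fit of expressed genes, which counted 9, 6 and 2 members, the share of genes called in either direction was 32.8% at 4 h, 43.2% at 20 h and 32.4% between 4 and 20 h.

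In Lat-/- cells, whose values chose the list, the same thresholds are only a description. At 4 h 7 members were past them upward and none downward (3.08% and 3.62% of genes), with 12.3% of genes in either direction in the fit of expressed genes, which also had 7. At 20 h none was past them upward and 3, Hspa1a, Hspa1b and Hsph1, downward (2.14% and 2.07% of genes). The fit of expressed genes had none there (7.08% of genes in either direction). From 4 to 20 h 9 were past them downward, or 10 in the fit of expressed genes, and none upward (2.1% and 2% of genes, and 6.92% in either direction among expressed genes). The median member log2 fold change was 1.98 at 4 h and -0.61 at 20 h. Leaving out the 4 h libraries 1 and 2 took the 7 members at 4 h to 1 and the 9 members between 4 and 20 h to 3.

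**Figure D3:**
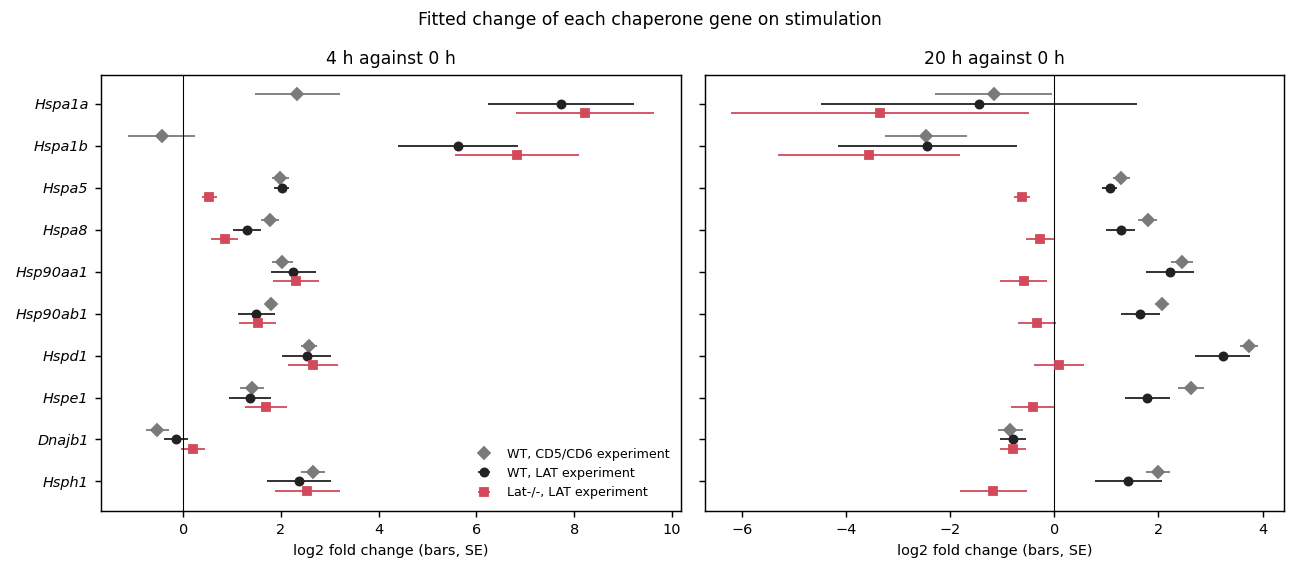
Log2 fold change of each chaperone gene against 0 h at 4 h and 20 h in WT and Lat-/- cells of the LAT experiment, and in the WT group of the CD5/CD6 experiment, with bars of 1 SE from the edgeR fits of expressed genes. At 4 h most genes lay at similar fitted values in both genotypes with Hspa5 apart (2.02 in WT and 0.54 in Lat-/- cells). For most genes the Lat-/- values at 4 h rested on libraries 1 and 2. With library 3 alone at 4 h (fit of all genes, not drawn) Hspd1 had 1.91 in WT and 0.24 in Lat-/- cells. At 20 h the WT values of Hspd1, Hsp90aa1 and Hspe1 were from 1.79 to 3.23 while the Lat-/- values lay near or below 0.

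Set directly against each other, Lat-/- and WT libraries of the LAT experiment overlapped for all 10 members at 0 h, for 9 at 4 h and for 1 at 20 h. Among all genes, all Lat-/- libraries were above all WT libraries for 3.99% at 0 h, 14.6% at 4 h and 20.6% at 20 h, and below them for 4.7%, 16.5% and 22.7%. Hspa5 was the member without overlap at 4 h. At 20 h Hspa1a was the member that overlapped, Dnajb1 was higher in Lat-/- cells and 8 members were lower. Hspa1b was among these 8, at a few counts per library. By the thresholds 1 member, Hspa1a, was higher and none lower in Lat-/- cells at 0 h (0.148% and 0.814% of genes), or 2 members with the replicate number as a block. It was 0 in the fit of expressed genes (0.718% in either direction), by DESeq2 and without library 3 of either genotype. At 4 h Hspa1a and Hspa1b, so 2, were higher and 1 lower (5.51% and 6.23% of genes), and the fit of expressed genes had Hspa5 alone (22.7% in either direction). Without Lat-/- library 3 at 4 h the number was 5, without Lat-/- library 1 it was 1, and without the 4 h libraries 1 and 2 of both genotypes 6 members were past the thresholds, all lower. At 20 h 7 were lower and none higher in both fits (12.3% and 12.1% of genes, and 45.4% in either direction among expressed genes), with a median member difference of -1.89, against 0.24 at 0 h. Other values differed between these 20 h libraries too. The summed B cell list was at 292 to 336 CPM in WT and 851 to 1136 CPM in Lat-/- libraries, where Ms4a1 had 0 and at most 4 counts, and the summed T cell list was at 3344 to 3803 CPM in WT and 6164 to 7097 CPM in Lat-/- libraries. Mitochondrially encoded transcripts took 0.973 to 1.07% of counts in WT and 1.94 to 2.93% in Lat-/- libraries. Their part in the chaperone values was not tested.

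As a difference of responses, Lat-/- minus WT, 1 member (Hspa1b) was past the thresholds upward and 1 (Hspa5) downward at 4 h (4.37% and 4.34% of genes), and none upward and 8 downward at 20 h (10.1% and 9.35% of genes). The fit of expressed genes had 1 downward at 4 h, Hspa5 again, and 7 downward at 20 h. Without the 4 h libraries 1 and 2 none was upward and 6 were downward at 4 h. These WT libraries enter each of these comparisons, so they are not independent of each other.

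In the CD5/CD6 experiment the same stimulation gave a rise of most members but hardly any Hspa1a or Hspa1b. In its WT libraries Hspa1a was at 0.366, 0 and 0.121 CPM at 0 h, 0.787, 0.958 and 0.674 CPM at 4 h and 0.0846, 0.0369 and 0.0761 CPM at 20 h. Hspa1b was at 3.49, 0.271 and 1.84 CPM, then 1.42, 1.40 and 1.28 CPM, then 0.451, 0.405 and 0.114 CPM. Over all 36 libraries Hspa1a did not exceed 1.43 CPM and Hspa1b did not exceed 3.49 CPM. The experiments were counted and normalized separately and differ in how cells were isolated, so levels are not compared between them. At these counts Hspa1a rose at 4 h in WT cells, with a log2 fold change of 2.33 (adjusted p = 0.023, SE 0.87) in the fit of 16143 expressed genes of that table, a call that the fit of all genes lost without the WT 0 h library 2, which had no read of Hspa1a. Hspa1b had a log2 fold change of -0.44 (adjusted p = 0.6, SE 0.69) at 4 h.

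Hspd1, by contrast, went from 86.6, 81.7 and 108 CPM at 0 h to 575, 519 and 549 CPM at 4 h and 1087, 1368 and 1168 CPM at 20 h in WT libraries, with no overlap between times. Its log2 fold change was 2.58 (adjusted p = 1.1e-13, SE 0.17) at 4 h and 3.74 (adjusted p = 6.8e-17, SE 0.18) at 20 h. Hsph1 went from 130.2, 105 and 171 CPM to 966, 822 and 768 CPM and then 502, 652 and 439 CPM, and peaked at 4 h. Hspa5 likewise peaked at 4 h, with 673, 668 and 584 CPM at 0 h, 2834, 2367 and 2435 CPM at 4 h and 1284, 1791 and 1536 CPM at 20 h. Dnajb1 was at 355, 169 and 369 CPM, then 204, 184 and 227 CPM and 149.8, 159 and 179 CPM, with a log2 fold change at 20 h of -0.85 (adjusted p = 0.0026, SE 0.24), under the 2-fold threshold.

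Across the 4 genotypes of that experiment the responses of 8 members lay close together. The log2 fold change at 4 h ranged from 2.51 to 2.61 for Hspd1, from 1.81 to 2.16 for Hspa5, from 1.77 to 1.99 for Hspa8, from 1.53 to 1.86 for Hsp90ab1 and from 1.88 to 2.24 for Hsp90aa1. It ranged from 2.46 to 2.93 for Hsph1, from 0.98 to 1.47 for Hspe1 and from -0.53 to -0.26 for Dnajb1. At 20 h the ranges were 3.74 to 3.92 for Hspd1, 2.37 to 2.82 for Hspe1, 2.45 to 2.73 for Hsp90aa1, 2.00 to 2.18 for Hsp90ab1, 1.79 to 2.14 for Hspa8, 1.99 to 2.46 for Hsph1, 1.28 to 1.51 for Hspa5 and -0.85 to -0.56 for Dnajb1. The values of the mitochondrial pair and of both Hsp90 genes were thus larger at 20 h than at 4 h in every genotype. Hspa1a ranged from 1.80 to 3.17 at 4 h and Hspa1b from -0.44 to 1.19, at about 1 CPM. Without the libraries that went against their labels the log2 fold changes of the 8 members in Cd5-/- and Cd6-/- cells moved by at most 0.22 in the fit of all genes, and those of Hspa1a and Hspa1b by up to 0.76.

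**Figure D4:**
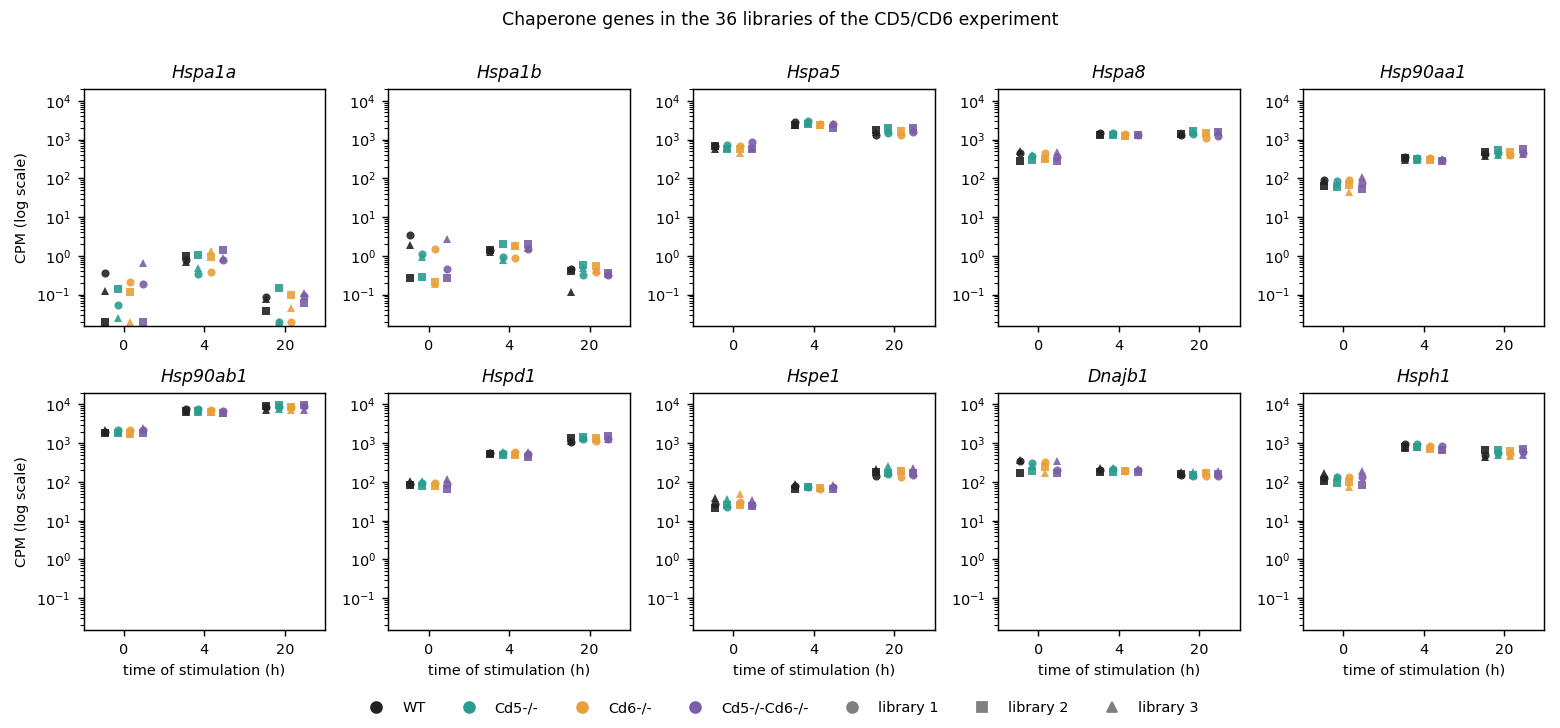
CPM of the 10 chaperone genes in each of the 36 libraries of the CD5/CD6 experiment, on a log axis, by genotype and hours of stimulation, with a marker shape for library 1, 2 or 3 and values of 0 drawn at 0.02 CPM. Hspa1a stays at or below 1.43 CPM, and in WT libraries Hspd1 climbs from 81.7 to 108 CPM at 0 h to between 1087 and 1368 CPM at 20 h.

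In that experiment's WT cells 8 members rose and none fell at 4 h (8.24% and 11.1% of 32290 genes), 7 rose and 1, Hspa1b, fell at 20 h (12.3% and 17.3%). From 4 to 20 h Hspd1 and Hspe1 rose and Hspa1a and Hspa1b fell, so 2 in each direction (8.74% and 12.2%). Shares were larger among the 10792 genes that averaged 50 counts or more. In WT cells 18.2% of them rose and 20.7% fell at 4 h, 25.7% and 24.4% at 20 h, and 17.5% and 18% from 4 to 20 h. In the knockouts 16.8 to 17.9% of them rose at 4 h and 24.4 to 26.8% at 20 h, while 18 to 21.8% and 24.1 to 25.6% fell. In Cd5-/- cells 8 rose at 4 h and 7 at 20 h and none fell (8.2% and 12.5% of genes rose, 11.3% and 17.5% fell). In Cd6-/- cells 7 rose at each time and none fell (7.72% and 11.4% of genes rose, 10.2% and 16.8% fell). These 4 counts and the members behind them were the same without the libraries that went against their labels. Cd5-/-Cd6-/- cells had 8 that rose at 4 h, or 7 in the fit of expressed genes, and 7 that rose and 1 that fell at 20 h, or 7 and 0 there (7.57% and 12.3% of genes rose, 9.66% and 18% fell). The median member log2 fold change in WT cells was 1.89 at 4 h and 1.87 at 20 h, with a median over all genes of 0.

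No member was called between a knockout and WT at any time, by edgeR's fit of all genes, by its fit of expressed genes or by DESeq2. The share of all genes called was 0.0619% at 0 h, 0.0743% at 4 h and 0.0186% at 20 h for Cd5-/- libraries by label, 0%, 0.0031% and 0.0186% for Cd6-/- libraries by label, and 0.0248%, 0.0434% and 0.0434% for Cd5-/-Cd6-/-. At an unadjusted p under 0.05 in the fit of all genes, 1 member differed in libraries labelled Cd5-/- at 0 h, 2 in those labelled Cd6-/- at 0 h and 0 in each of the other contrasts. The fit of expressed genes had 0 and 1 at 0 h. Leaving out both libraries that went against their labels changed none of the calls. Without the library 1 labelled Cd6-/- at 0 h 1 member (Hspa1b) was called lower there. For the 8 members other than Hspa1a and Hspa1b the log2 difference from WT lay between -0.43 and 0.26 at 0 h, between -0.20 and 0.13 at 4 h and between -0.05 and 0.21 at 20 h. The widest 95% intervals reached from -0.87 to 0.74 at 0 h, from -0.64 to 0.50 at 4 h and from -0.50 to 0.62 at 20 h. For Hspa1a, whose counts were low, the bounds at 4 h were -1.87 and 1.83.

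Differences of response between knockouts and WT were called for 0 of 10 members in each of the 6 contrasts, by both edgeR fits and by DESeq2. The fit of all genes also called none in the 4 of these contrasts with Cd5-/- or Cd6-/- cells when the libraries that went against their labels were left out. All called genes made up 0.0031% of genes at 4 h and at 20 h for Cd5-/-, 0% and 0.0031% for Cd6-/-, and 0% at both times for Cd5-/-Cd6-/-. At an unadjusted p under 0.05 the fit of all genes had 1 member at 20 h for Cd5-/-, 1 at each time for Cd6-/- and 0 for Cd5-/-Cd6-/-, and the fit of expressed genes had 0 in each.

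Per length, as CPM per kilobase of the annotated gene length (RPKM), the members of the LAT experiment spanned a wide range of levels. In WT cells at 4 h Hsp90ab1 led with 2400 ± 455 RPKM (SD, n = 3), followed by Hspa5 with 565 ± 59.1, Hspa8 with 290 ± 27.0 and Hspd1 with 220 ± 60.5 RPKM. Below them lay Hsph1 with 128 ± 51.1, Hsp90aa1 with 89.3 ± 18.7, Dnajb1 with 77.0 ± 6.01 and Hspe1 with 61.0 ± 14.0 RPKM. Hspa1b with 36.4 ± 32.6 and Hspa1a with 22.2 ± 19.5 RPKM were last. From Hspa8 downward each neighbor lay within 2 SD of the next, by the larger SD of the pair, and Hsp90ab1 and Hspa5 stood clear of the rest. In Lat-/- cells at 4 h Hspa1b reached 136 ± 141 and Hspa1a 77.2 ± 78.9 RPKM, SDs as large as the means, beside 2578 ± 1443 RPKM for Hsp90ab1. In WT cells at 20 h Hspd1 took the second place with 363 ± 13.4 RPKM, ahead of Hspa5 with 296 ± 10.2 and Hspa8 with 286 ± 12.8 RPKM, which did not differ beyond their spread. At 0 and 20 h Hspa1b and Hspa1a had the lowest levels in both genotypes, and at 20 h they were at most 0.137 RPKM.

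The other genes of protein folding were followed with 9 lists of 79 genes, of which 78 were measured in the LAT experiment. These lists were drawn up with earlier results of the same data known. Most genes named from them were picked from those called, for the size of their change. Their adjusted p therefore describe the picked genes and are no separate support. In WT cells 35 rose and 1 fell at 4 h, and 36 rose and 3 fell at 20 h, with median log2 fold changes of 0.96 and 0.93. The fit of expressed genes gave 36 and 1, and 36 and 3. In Lat-/- cells 12 rose and none fell at 4 h and none rose and 1 fell at 20 h, with medians of 0.32 and -0.08, and the fit of expressed genes gave 13 and 0, and 0 and 0. The rise at 4 h was not even across the Lat-/- libraries. Libraries 1 and 2 were 5.18-fold and 2.63-fold above library 3 for Cacybp, and 4.37-fold and 2.77-fold for Dnaja4. For Hspa4l, which also rose, these ratios were 1.26 and 0.800. In the CD5/CD6 experiment, among WT cells, 40 rose and 2 fell at 4 h, and 46 rose and 5 fell at 20 h. The shares of all genes called in these comparisons are those given above for the members, with a median of 0 over all genes. Among the 10151 genes of the LAT experiment that averaged 50 counts or more the shares were larger in WT cells. There 15.6% rose and 17.8% fell at 4 h, and 19.7% rose and 20.7% fell at 20 h. In Lat-/- cells 5.39% of them rose and 6.61% fell at 4 h, and 4.23% rose and 2.93% fell at 20 h.

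All 8 subunits of TRiC, the chaperonin that folds actin and tubulin, rose in WT cells of the LAT experiment at 4 h and again at 20 h, whereas 1 rose in Lat-/- cells at 4 h and none at 20 h. Cct3, one of them, had a log2 fold change of 1.66 (adjusted p = 1.2e-05, SE 0.25) in WT cells at 4 h. Of the 5 other cytosolic HSP70 and HSP110 genes 4 rose in WT and 2 in Lat-/- cells at 4 h. Hspa4l, an HSP110 gene, led both, with 3.93 (adjusted p = 2.4e-10, SE 0.24) in WT and 2.51 (adjusted p = 3.7e-07, SE 0.23) in Lat-/- cells. The prefoldin list, whose products pass clients to TRiC, had 3 of 6 genes that rose in WT at 4 h and none in Lat-/- cells. Of 10 cytosolic J-domain genes 2 rose in WT cells at 4 h (3 in the fit of expressed genes), 1 at 20 h and 3 in Lat-/- cells at 4 h. Of 14 cofactors of HSP70 and HSP90, 5 rose in WT cells at 4 h, 7 at 20 h and 4 in Lat-/- cells at 4 h (5 in the fit of expressed genes). Of 3 small heat shock protein genes with reads, 1 rose and 1 fell in WT cells at 4 h, 1 fell at 20 h and 1 rose in Lat-/- cells at 4 h. The heat shock factor genes Hsf1 and Hsf2 were not called in either genotype at 4 or 20 h.

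Of 22 ER chaperone and unfolded protein response genes 10 rose in WT cells at 4 h and 1 in Lat-/- cells. That 1 was Xbp1, a transcription factor of the unfolded protein response, with 1.40 (adjusted p = 1.1e-06, SE 0.14) in Lat-/- and 1.79 (adjusted p = 7.9e-09, SE 0.15) in WT cells. At 20 h 8 rose and 2 fell in WT cells. Sdf2l1, an ER cofactor, rose there by 3.15 (adjusted p = 1.2e-09, SE 0.23), while Ddit3, the stress-response factor CHOP, fell with -2.14 (adjusted p = 7.5e-09, SE 0.18). In WT cells 2 of 8 mitochondrial chaperones and proteases rose at 4 h and 5 at 20 h, and none rose in Lat-/- cells at 4 h. Hspa9, the mitochondrial HSP70, went from 274, 266 and 284 CPM at 0 h to 1199, 1215 and 985 CPM at 4 h in WT libraries, with a log2 fold change of 2.07 (adjusted p = 3.8e-09, SE 0.16), and was at 515, 405 and 355 CPM in Lat-/- libraries at 4 h.

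**Figure D5:**
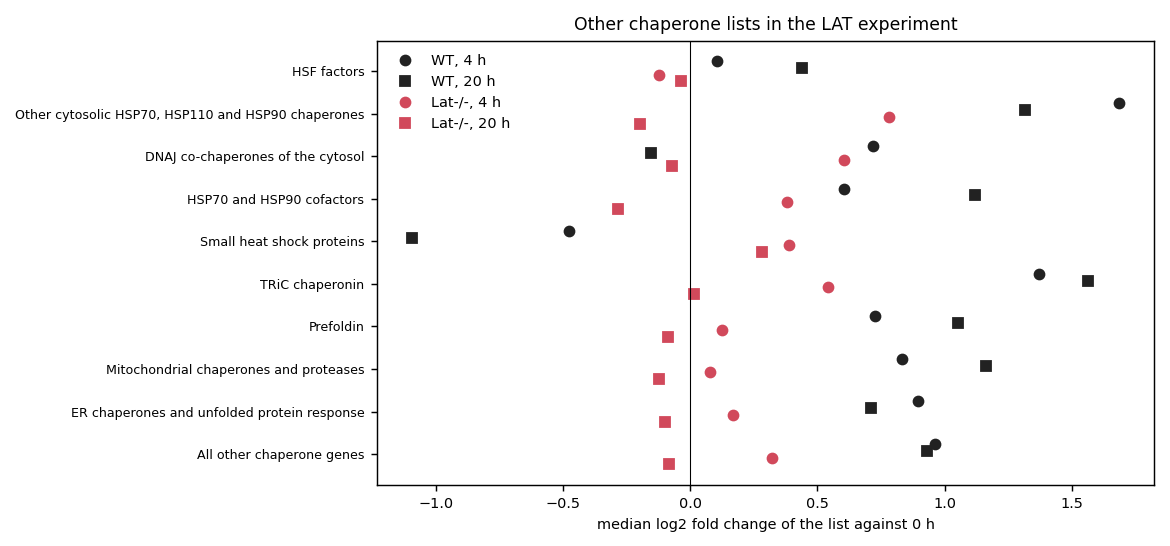
Median log2 fold change against 0 h of each of the 9 other chaperone lists in WT and Lat-/- cells of the LAT experiment at 4 and 20 h. The WT medians of TRiC were 1.37 at 4 h and 1.56 at 20 h, and the Lat-/- median at 4 h was 0.54.

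Set against WT cells, Lat-/- cells had 5 of the 78 genes higher and 15 lower at 4 h, and 7 higher and 35 lower at 20 h (4 and 15, and 7 and 35, in the fit of expressed genes). Of all genes 5.51% were higher and 6.23% lower at 4 h, and 12.1% and 12.3% at 20 h. Among the 10151 genes that averaged 50 counts or more the shares were 11.6% and 12.5% at 4 h, and 21.8% and 22.3% at 20 h. At 0 h none of the 78 genes differed by either fit. The genes higher at 4 h included the HSP70 cofactor Bag3, the J-domain genes Dnaja4 and Dnajb4 and the small heat shock protein gene Hspb6, beside Hspb1, which was not called in the fit of expressed genes. Bag3 was at 27.5, 22.8 and 21.5 CPM in WT and 144, 95.1 and 56.5 CPM in Lat-/- libraries at 4 h, without overlap, and at 10.4, 9.66 and 10.0 CPM and 59.6, 52.9 and 39.4 CPM at 20 h. The log2 difference of Bag3 was 2.04 (adjusted p = 1.4e-06, SE 0.24) at 4 h and 2.34 (adjusted p = 1.0e-07, SE 0.24) at 20 h. Bag3 and the genes named next were picked for the size of this same difference, so their adjusted p are description only. At 4 h Dnaja4 differed by 1.56 (adjusted p = 0.00057, SE 0.32), Dnajb4 by 1.44 (adjusted p = 3.7e-05, SE 0.23) and Hspb6 by 1.91 (adjusted p = 9.2e-05, SE 0.33).

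Library 3 was the lowest Lat-/- library at 4 h for several of these too. Dnaja4 was at 16.5, 13.7 and 11.6 CPM in WT and 66.0, 41.9 and 15.1 CPM in Lat-/- libraries, and Dnajb4 at 34.4, 29.9 and 34.8 CPM and 138, 69.4 and 61.2 CPM. Hspb1, a small heat shock protein gene of the same list as Hspb6, was at 3.41, 2.11 and 0.226 CPM in WT and 14.6, 4.28 and 0.0520 CPM in Lat-/- libraries. Library 3 of both genotypes had almost no Hspb1, as it had little Hspa1a.

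The genes lower in Lat-/- cells at 20 h were 7 of 8 TRiC genes, 4 of 6 prefoldin genes, 5 of 8 mitochondrial genes, 3 of 5 other cytosolic HSP70 and HSP110 genes, 8 of 14 cofactors of HSP70 and HSP90, 7 of 22 ER genes and 1 of 10 cytosolic J-domain genes, the same numbers in both fits. Of genes that averaged 50 counts or more, 22.3% were lower there, so the ER and J-domain numbers do not stand out from other genes. Hspa9 differed by -1.42 (adjusted p = 7.7e-07, SE 0.16) at 4 h and -2.14 (adjusted p = 1.5e-09, SE 0.16) at 20 h. Sdf2l1 differed by -1.73 (adjusted p = 3.8e-06, SE 0.22) at 4 h and by -3.07 (adjusted p = 1.3e-09, SE 0.23) at 20 h, when WT libraries had 126, 131 and 124 CPM and Lat-/- libraries 12.0, 11.2 and 22.1 CPM. At 20 h Bag2, a cofactor of HSP70, differed by -3.80 (adjusted p = 2.7e-08, SE 0.36). Ddit3 was higher in Lat-/- cells at 20 h, by 1.39 (adjusted p = 1.4e-06, SE 0.18).

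Over all 18 libraries of the LAT experiment the 5 genes whose log2 CPM was most like the sum of Hspa1a and Hspa1b, among 10149 genes that averaged 50 counts or more, included Dusp8, Sin3b, Zfand2a and Nsrp1, with Pearson r from 0.92 to 0.93 and a median r over all genes of 0.017. Dusp8 encodes a phosphatase of the MAP kinases and Zfand2a a zinc finger protein tied to the proteasome. Hsph1 stood at place 81 with r of 0.78. Over the 36 libraries of the CD5/CD6 experiment the most alike of 10792 genes were Cdr2, Rybp, Ets2, Tgoln1 and D17Wsu92e, with r from 0.79 to 0.87. The libraries share genotypes and times, so these are descriptions of a common time course with no test.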

How the data were processed

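RNA of mouse naive CD4+ T cells was sequenced as stranded poly-A libraries, and the authors deposited 2 tables of raw read counts per gene (STAR alignment to GRCm38, featureCounts). The counts are not normalized. The annotation release, the strand setting and the treatment of reads that match several genes are not given in the sources used here. Groups and replicate numbers came from the labels. The members and gene lists were chosen with earlier results of these data known.

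Each table was fitted separately in R 4.3.3 with edgeR 4.0.16 (TMM factors, quasi-likelihood test, 1 coefficient per genotype and time, Benjamini-Hochberg adjustment over all genes with at least 1 read, 32290 and 27780 genes). A gene was called at a change over 2-fold and adjusted p under 0.05. In these fits the many near-empty genes left the spread almost common to all genes (prior degrees of freedom infinite for the LAT table and 50.9 for the other, against 6.46 and 4.73 when filterByExpr kept 13928 and 16143 expressed genes), which makes SEs of variable genes too small. SEs, intervals (95%) and adjusted p of single genes are therefore from the fit of expressed genes. DESeq2 1.42.0 was an alternative. CPM are counts scaled to a common library total with TMM factors, and RPKM divides them by the deposited gene length. Of 55385 identifiers 55144 matched a symbol. Totals ran from 17784644 to 45222554 counts, and a count of 0 allows up to 3 counts, for counting error only.

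Named genes were all members, up to 2 called genes per direction, list and main comparison with the largest change among those averaging 50 counts or more, and the 5 genes most alike in pattern. Not every gene these rules name is reported here. Hspb1, whose values were seen before it was named, was added. Alternatives were DESeq2, RLE factors, no TMM factors, filterByExpr, compared groups alone, adjusted p alone, Hspa1a and Hspa1b summed, the replicate number as a block, each library left out, and, chosen after seeing the data, the 4 h LAT libraries 1 and 2, or 3, left out. Same-numbered libraries deviated together in the CD5/CD6 experiment, with every pair's correlation over 0.1 apart from 1 pair between the Cd6-/- libraries at 4 h and 0 h (0.037), so that the numbers were taken to pair them. The SEs, intervals and adjusted p given for that experiment nonetheless come from fits without this pairing. It entered only through the replicate block, as an alternative. In the LAT experiment this held for Lat-/- against WT at 0 h (0.31, 0.34 and 0.44) and for Lat-/- at 20 h against 0 h. The scripts were tested on simulated data.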

Additional observations from a re-analysis of the deposited data

Results flagged for a closer look

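Values in this section are differences of log2 fold changes against 0 h, Lat-/- minus WT, in the LAT experiment (edgeR fit of all genes with a read). Hspa5, the ER HSP70, was singled out because at 20 h every WT library was above and every Lat-/- library below all 0 h libraries of its genotype, with a difference of -1.69. No p-value is given for that difference, since the family was chosen on Lat-/- values.

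Among the other chaperone genes, the difference itself was tested. In the fit of expressed genes 3 of 77 passed the thresholds upward and 12 downward at 4 h, and 4 and 36 at 20 h. Of all genes that averaged 50 counts or more, 10.7% passed upward and 10.9% downward at 4 h in the fit of all genes. At 20 h these shares were 20.5% and 20.9%. Set apart below are up to 2 passing genes per list, time and direction, with the largest differences among genes averaging 50 counts or more. This limit gave 31 values over 22 genes. At 4 h the difference was below 0 for the ER genes Sdf2l1 (-1.89) and Atf6 (-1.44), the mitochondrial genes Hspa9 (-1.57) and Clpp (-1.06), the cofactor Bag2 (-1.45) and the HSP110 gene Hspa4l (-1.42). It was also below 0 for the prefoldin genes Pfdn4 (-1.50) and Pfdn2 (-1.32) and the TRiC genes Cct6a (-1.18) and Cct3 (-1.15). All 10 had a WT log2 fold change above 0, from 1.20 to 3.91. The difference was above 0 for Hspb6 (1.78, with log2 fold changes of -1.39 in WT and 0.39 in Lat-/- cells), Dnajb4 (1.17) and Bag3 (1.14).

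At 20 h the difference was below 0 for Bag2 (-3.62), Sdf2l1 (-3.23), Stip1 (-2.44), Hspa9 (-2.30), Cct6a (-2.14) and Cct3 (-2.01). It was also below 0 for Hspa4l (-1.95), Hspa4 (-1.71), Trap1 (-1.67), Pdia6 (-1.53), Pfdn1 (-1.43), Pfdn4 (-1.41) and Dnajc2 (-1.14). The WT log2 fold changes of these 13 genes ran from 1.08 to 3.92 and the Lat-/- values from -1.12 (Stip1) to 0.31 (Bag2). The difference was above 0 for Ddit3 (1.76), Bag3 (1.43), Hspb6 (1.37), Pfdn5 (1.20) and Dnajb9 (1.06), whose WT values all lay below 0, from -2.14 to -0.74. In Lat-/- cells Ddit3 and Dnajb9 were nearer to 0 (-0.39 and -0.60), and Bag3, Hspb6 and Pfdn5 lay between 0.28 and 0.52. Of the 31 values 30 also passed in the fit of expressed genes, and Dnajb9 did not, with an adjusted p of 0.059 by edgeR.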

How the results depend on the processing

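Counts of members called that moved by over 1.5 times under an alternative were those of the LAT contrasts given here and of Cd6-/- against WT at 0 h. For Lat-/- against WT at 0 h (1 member) DESeq2, the sum of Hspa1a and Hspa1b, the compared groups alone and filterByExpr gave 0, adjusted p alone gave 3 and the fit with the replicate block gave 2. For Lat-/- against WT at 4 h (3 members) DESeq2 and filterByExpr gave 1, adjusted p alone 7, and leaving out the 4 h libraries 1 and 2 gave 6. For the response difference of Lat-/- minus WT at 4 h (2) DESeq2, filterByExpr and the replicate block gave 1, and leaving out the 4 h libraries 1 and 2 gave 6. For Lat-/- at 20 h against 0 h (3) DESeq2 gave 1, adjusted p alone 6 and filterByExpr 0. For WT at 20 h against 4 h (2) the summed pair gave 1, by construction, and adjusted p alone 7. Without the 4 h libraries 1 and 2, fewer members passed for Lat-/- at 4 h against 0 h and for Lat-/- at 20 h against 4 h. The Lat-/- log2 fold changes at 4 h, set against all 3 libraries at 0 h, then reversed for Hspe1 (-0.31) and Hsph1 (-0.34). Within Lat-/- library 3 Hsph1 was at 98.3 CPM at 0 h and 205 CPM at 4 h. Leaving out 1 library at a time gave 0 to 2 members for Lat-/- against WT at 0 h, 1 to 5 at 4 h, 1 to 3 for the response difference at 4 h, and 0 to 1 for Cd6-/- against WT at 0 h. Elsewhere the causes were not tested.

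The replicate block moved no other count of members by over 1.5 times. No other count left its side under RLE factors or without TMM factors. Of the 5 genes most like the Hspa1a and Hspa1b sum, 4 in the CD5/CD6 and 5 in the LAT experiment stayed with a prior count of 0.25. Depth limits Hspa1a and Hspa1b at 0 and 20 h and in the whole CD5/CD6 experiment.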
